A study of Sus scrofa with 22 samples.

Results

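The swine leukocyte antigen (SLA) genes, the pig's major histocompatibility complex (MHC), were read here together with the genes that load peptides onto their products, in 22 RNA-seq libraries of pig foliate papilla tissue and papilla organoids. The members were the 15 table rows whose symbol starts with SLA- and 15 further genes named by the rule, namely B2M, TAP1, TAP2, TAPBP, PSMB8, PSMB9, PSMB10, NLRC5, CIITA, CD74, ERAP1, ERAP2, CALR, CANX and PDIA3. All 30 were found, of 27376 genes in the table of 16 libraries and 29850 genes in the table of the CQ experiment. The rule used no measured value.

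Foliate papillae are taste bud-bearing folds on the sides of the tongue. The first comparison set passage 1 organoids of 5 pigs, grown in the expansion medium labelled LPM, against the foliate papillae of the same 5 pigs. The second set 3 libraries of organoids in LPM without FGF10 against 3 in LPM. There, and for the passage 1 organoids, LPM held FGF10 at 100 ng/ml. The third set 3 libraries labelled CQ, kept in LPM to day 10 and then in CQ medium to day 16 or 17, against 3 in LPM. For all organoids LPM also held EGF, FGF2, R-spondin 2, noggin, SHH, Wnt3a, the kinase inhibitors Y-27632, A-83-01, SB202190 and CHIR99021, prostaglandin E2, forskolin, insulin, N-acetylcysteine and nicotinamide. The names LPM and CQ are used as the labels give them. What CQ medium contains, the breed and age of the pigs and the donors of the FGF10 and CQ experiments are not given in the sources used here. No FGF10 concentration is recorded here for the LPM of the CQ experiment.

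Total counts per library, in read pairs assigned to genes, were 21794116 to 27767229 in the 5 organoid cultures and 17036091 to 20714619 in the 5 papillae. They were 19643482 to 23452178 without FGF10 and 20772254 to 25234721 in the LPM libraries beside them. In CQ they were 14667093 to 16004815, and 19619774 to 26009974 in the LPM libraries set against CQ. The CQ libraries stood apart in detecting 14014 to 16005 genes, against 17489 to 17920 in their LPM libraries, and in a median variance-to-mean ratio of 12.7 among genes of 10 to 30 counts. For that reason the floor for CQ at 0 counts was set at 38.2 counts summed over its libraries, and at 3 counts for every other group. The same ratio was 4.82 in passage 1 organoids and 3.43 in papillae, where the floor was not raised. Folds given there as "at least" would be smaller under the rule used for CQ. Apart from the CQ floor, which was raised by the variance-to-mean ratio of CQ, floors and counting intervals cover counting error only. CPM are counts scaled to library size. Summed over the epithelial markers found in the files (EPCAM, CDH1, KRT8, KRT5 and TP63), levels were 4972 to 6909 CPM in organoids and 7721 to 10579.9 CPM in papillae. EPCAM averaged 483 ± 43.6 CPM in organoids and 132 ± 54.6 CPM in papillae (SD, n = 5 each, 3.65-fold higher), and KRT8 (6.33-fold) and CDH1 (2.85-fold) were higher as well. The basal cell markers KRT5 (4.83-fold) and TP63 (1.82-fold) were lower in organoids, all 5 at an adjusted p under 0.05 in edgeR's quasi-likelihood test.

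As background, class I molecules sit on most nucleated cells and show peptides from inside the cell to CD8 T cells, on a heavy chain paired with beta-2-microglobulin. Class II molecules are alpha-beta pairs that show peptides taken up from outside to CD4 T cells, and they are made mainly by dendritic cells, macrophages and B cells, and by epithelium under interferon-gamma. The tongue epithelium holds resident antigen-presenting cells, while organoids are grown from epithelial cells.

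SLA-1, SLA-2 and SLA-3 encode the classical, highly polymorphic class I heavy chains, SLA-6, SLA-7 and SLA-8 the non-classical ones, and SLA-5 a further class I chain at the classical locus. On Sscrofa11.1 the classical cluster lies on chromosome 7, with the row for SLA-1 at 22824137 to 22920154, SLA-5 at 22851888 to 22854782, SLA-2 at 22916747 to 22959405 and SLA-3 at 22938211 to 22942735. The row for SLA-1 spans SLA-5 and overlaps the start of SLA-2, and the row for SLA-2 spans SLA-3. SLA-8 (23622352 to 23625818), SLA-7 (23634731 to 23638722) and SLA-6 (23645335 to 23649342) lie beyond them. These genes are near-identical in places, read pairs that map to several places were not counted, and the reference carries 1 haplotype, so that the split of counts between them is uncertain and may differ from pig to pig.

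The class II genes follow on chromosome 7, from SLA-DRA (24825037 to 24830650) and SLA-DRB1 (24901386 to 24914016) over SLA-DQA1 (24953472 to 24959313), SLA-DQB1 (24969034 to 24977238) and SLA-DOB (25030435 to 25038196) to SLA-DMB (25119278 to 25125089), SLA-DMA (25133494 to 25137928) and SLA-DOA (25178866 to 25182665). Between SLA-DOB and SLA-DMB lie TAP2 (25045085 to 25056915), PSMB8 (25058456 to 25061666), TAP1 (25062772 to 25071989) and PSMB9 (25072133 to 25077508), and TAPBP lies at 29663491 to 29673453. The other members lie outside chromosome 7, with B2M (126837721 to 126844043) and PDIA3 on chromosome 1, CD74, ERAP1, ERAP2, CALR and CANX on chromosome 2, CIITA (32171706 to 32230775) on chromosome 3, and NLRC5 (18933179 to 19036288) and PSMB10 on chromosome 6.

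In passage 1 organoids the class II genes and CD74 were almost absent, NLRC5 was low, and class I was present with a different mix of chains than in papillae. Of the 30 members, all of which passed the filter on low counts, 5 were called higher in organoids and 17 lower, and 8 were not called. The shares over all genes tested were 32.4% higher and 35.1% lower, 67.5% in either direction. Of the 22 members outside class II, 5 were called higher and 9 lower. The median log2 difference was -0.77 over the members and -0.01 over all 16311 genes tested. A call is an adjusted p under 0.05 in edgeR's quasi-likelihood test with Benjamini-Hochberg adjustment over all genes tested, which is the adjusted p given throughout. Organoids and papillae did not overlap for 16 of the 30 members, against 54.1% of all genes tested.

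The RNA of organoids and of papillae was extracted with different kits, so that tissue and kit cannot be told apart. In such bulk samples fewer cells of a type and less RNA per cell cannot be told apart either. With library size alone as the scaling, the median of all genes moved by 0.29 on the log2 scale, 59.6% of all calls were higher against 48.0% with TMM scaling, and 6 members were called higher and 11 lower. The member calls that depend on this are named beside each gene.

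**Figure D1:**
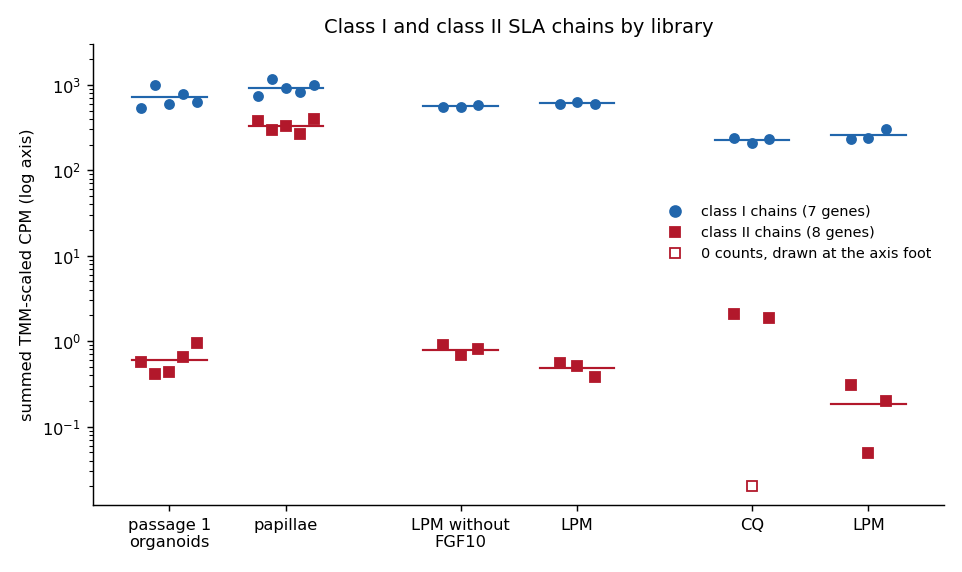
Summed TMM-scaled CPM (log axis) of the 7 class I chains (circles) and the 8 class II chains (squares) in each library of the 6 groups, with horizontal bars at group means; an open square at the foot of the axis marks a library with 0 class II counts, and no class II mean is drawn for CQ. Class I stayed between 209 and 1166 CPM in every library, while class II lay between 266 and 402 CPM in papillae and under 3 CPM in every organoid library.

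Among the chains themselves, the 8 class II genes summed to 0.569, 0.410, 0.439, 0.647 and 0.952 CPM in organoids of pigs 1 to 5, against 377, 298, 326, 266 and 402 CPM in the papillae of the same pigs. The groups lay far apart. Class II counts made up 0.0408 to 0.151% of all class I and II chain counts in organoids and 20.4 to 33.8% in papillae. The 7 class I genes summed to 531, 1003, 603, 783 and 631 CPM in organoids and to 739, 1166, 905, 826 and 992 CPM in papillae, and these ranges overlapped. In the plot of summed levels by library, class I exceeded class II 663-fold to 2449-fold in organoids and 1.96-fold to 3.91-fold in papillae.

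SLA-DRA, the alpha chain of the DR pair, had 0 counts in each of the 5 organoid libraries, against 108, 80.2, 92.7, 80.5 and 126 CPM in papillae. With 0 against 8327 counts in all, it was at least 4219-fold lower in organoids (adjusted p = 1.09e-07). Its partner SLA-DRB1 had 0 counts in every organoid library, against 69.4, 46.3, 42.8, 31.6 and 60.4 CPM in papillae, and was at least 2176-fold lower (adjusted p = 6.7e-07). Both chains of the DR pair were therefore without a single read pair in organoids. SLA-DQA1, the alpha chain of the DQ pair, likewise had 0 counts in organoids, against 87.6, 68.7, 76.00, 60.9 and 89.6 CPM in papillae, and was at least 3339-fold lower (adjusted p = 7.67e-08). SLA-DQB1, its beta chain, had 0.0407, 0.0410, 0.0879, 0.136 and 0.131 CPM in organoids, against 77.3, 69.4, 78.7, 64.4 and 91.9 CPM in papillae. That is 12 counts against 6578, a 792-fold lower level (log2 difference -9.63, SE 0.25, adjusted p = 1.73e-09). Every papilla lay far above every organoid culture for all 4 genes.

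SLA-DM catalyses the loading of peptides onto class II, and SLA-DO restrains it; the roles are known from humans and mice. SLA-DMA had 0.0813, 0.246, 0.132, 0.170 and 0.0984 CPM in organoids, against 11.9, 12.97, 9.83, 9.47 and 12.2 CPM in papillae (74.8-fold lower, log2 difference -6.23, SE 0.31, adjusted p = 4.46e-08). SLA-DMB had 0.407, 0.0410, 0.0879, 0.204 and 0.558 CPM in organoids, against 16.97, 10.96, 15.8, 12.8 and 13.99 CPM in papillae (51.9-fold lower, SE 0.50 on the log2 scale, adjusted p = 2.57e-06). Neither chain of SLA-DM overlapped between the groups. SLA-DOA had 0 counts in every organoid library, against 4.07, 6.31, 8.26, 4.64 and 5.76 CPM in papillae, and was at least 260.4-fold lower (adjusted p = 3.53e-06). SLA-DOB had 0.0407, 0.0819, 0.132, 0.136 and 0.164 CPM in organoids, against 2.16, 3.30, 1.93, 1.84 and 1.81 CPM in papillae, and was 18.7-fold lower on 15 against 195 counts (adjusted p = 2.76e-06). Per kilobase of exon the DO chains had the lowest levels of the 8 class II genes in papillae, with SLA-DOB the lowest at 1.02 CPM per kb. All 8 passed the filter on low counts through the papillae, so their count is not by itself a finding. Their median log2 difference was -9.81 as fitted and -8.83 with the genes at 0 set to their bounds.

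CD74 encodes the invariant chain, which fills the class II groove until peptide is loaded. It had 5.65, 2.38, 5.14, 5.24 and 6.89 CPM in organoids, against 407, 430.2, 471, 326 and 455 CPM in papillae. The groups were widely separated, with a level 82.4-fold lower in organoids (log2 difference -6.36, SE 0.29, adjusted p = 2.94e-08). CD74 was nevertheless counted in every organoid library of the series, while SLA-DRA and SLA-DRB1 had 0 counts in all 17, SLA-DOA in 16 of 17 and SLA-DQA1 in 15 of 17.

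The transactivators did not move alike. CIITA, which in humans and mice switches on class II, DM and CD74 transcription, had 23.3, 20.1, 18.9, 15.8 and 17.9 CPM in organoids, against 27.7, 35.0, 31.9, 24.8 and 22.7 CPM in papillae. The lowest papilla and the highest organoid library overlapped, and CIITA was 1.48-fold lower in organoids (log2 difference -0.57, SE 0.15, adjusted p = 0.00667). With library size alone it was not called (-0.30, adjusted p = 0.18). Strand was ignored in counting, and 636 exonic bases of the CIITA row, 5.24%, lie opposite its neighbour DEXI, which averaged 40.5 ± 6.16 CPM in organoids and 22.6 ± 3.60 CPM in papillae (SD, n = 5 each), so reads there cannot be told apart. NLRC5, the class I counterpart of CIITA, had 0.0813, 1.19, 0.308, 0.749 and 0.492 CPM in organoids, against 18.8, 37.0, 31.9, 31.1 and 19.01 CPM in papillae. Every organoid library lay under every papilla, with a level 48.2-fold lower (log2 difference -5.59, SE 0.51, adjusted p = 3.27e-06).

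**Figure D2:**
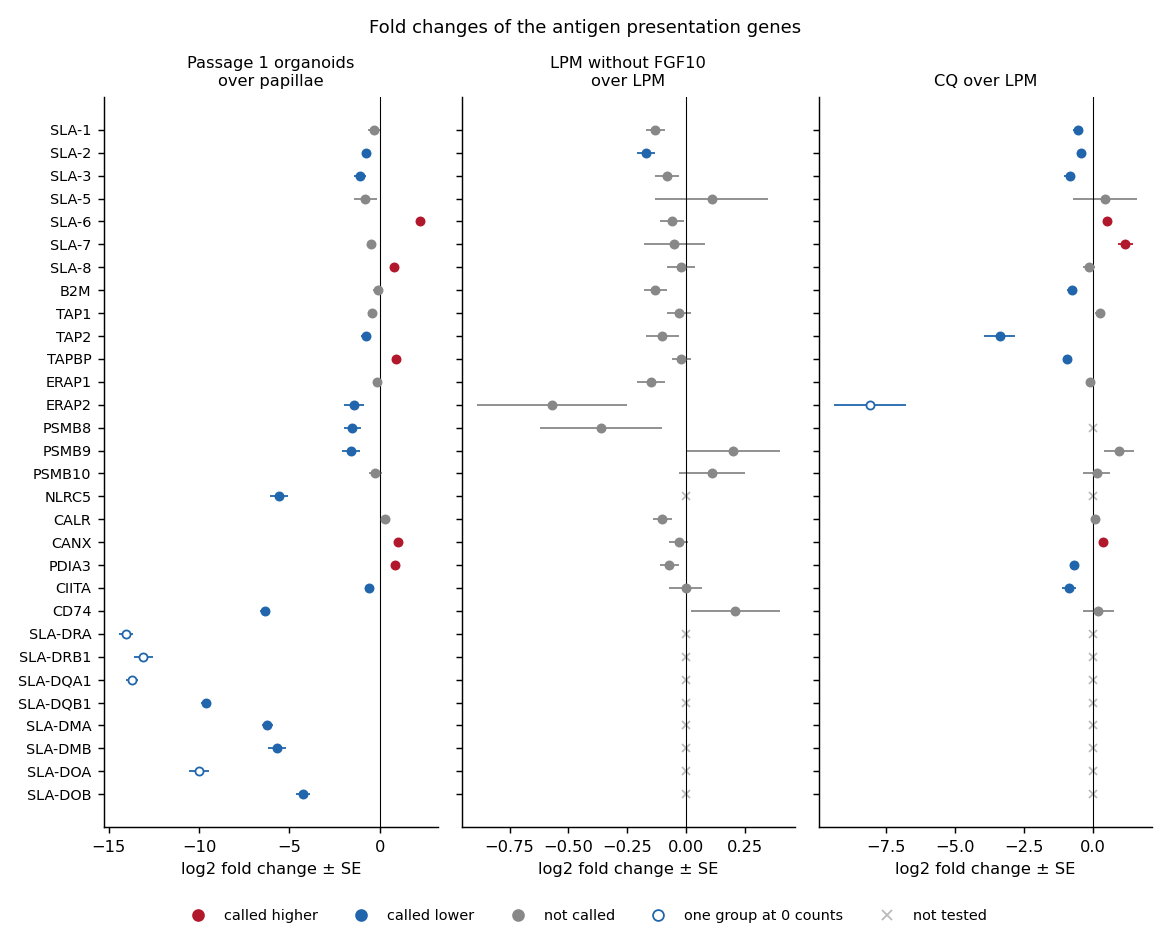
Log2 difference (organoids over papillae, LPM without FGF10 over LPM and CQ over LPM, 1 panel each) with its standard error for the 30 members, red where called higher, blue where called lower and grey where not called; open symbols mark genes with one group at 0 counts, whose fitted value is no bound, and crosses mark genes not tested. The class II genes, CD74 and NLRC5 lie furthest to the left in the organoid panel, and the FGF10 panel stays close to 0.

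Of the class I heavy chains, SLA-2 and SLA-3 were called lower in organoids and SLA-6 and SLA-8 higher, while SLA-1, SLA-5 and SLA-7 were not called. SLA-1 had 171, 451, 176, 303 and 273 CPM in organoids, against 233, 465, 229, 308 and 471 CPM in papillae. The groups overlapped and the difference was not called (log2 difference -0.31, SE 0.31, adjusted p = 0.388). SLA-2 had 171, 303, 171, 254 and 153 CPM in organoids, against 346, 439.8, 357, 323 and 294 CPM in papillae. It fell in organoids by 0.74 on the log2 scale (SE 0.21, adjusted p = 0.00746), though the highest organoid library lay over the lowest papilla. SLA-3 had 31.5, 94.5, 122, 84.5 and 53.9 CPM in organoids, against 109.6, 177, 230.0, 128 and 167 CPM in papillae, and was 2.10-fold lower with overlap (SE 0.33, adjusted p = 0.0133). With library size alone neither SLA-2 (-0.46, adjusted p = 0.113) nor SLA-3 (-0.80, adjusted p = 0.0526) was called.

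Some of these genes varied from pig to pig. Organoid levels of SLA-1, SLA-2 and SLA-3 were lower than those of the own papilla in each of the 5 pigs, and the organoid-to-papilla ratio of SLA-1 was 0.734, 0.970, 0.769, 0.984 and 0.580. SLA-3 made up 8.43, 11.13, 25.98, 13.2 and 11.2% of the counts of the 3 classical genes in organoids, against 15.9, 16.4, 28.2, 16.8 and 17.95% in papillae. Pig 3 had the highest share in both. SLA-5 had 1.50, 11.2, 7.25, 10.5 and 1.51 CPM in organoids, against 3.33, 19.5, 14.1, 13.3 and 4.82 CPM in papillae. Pigs 1 and 5 were low and pigs 2, 3 and 4 high in both tissues, and SLA-5 was not called without regard to pig (log2 difference -0.79, SE 0.65, adjusted p = 0.296). With the pig as a block it was called (log2 difference -0.97, adjusted p = 0.00796).

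**Figure D3:**
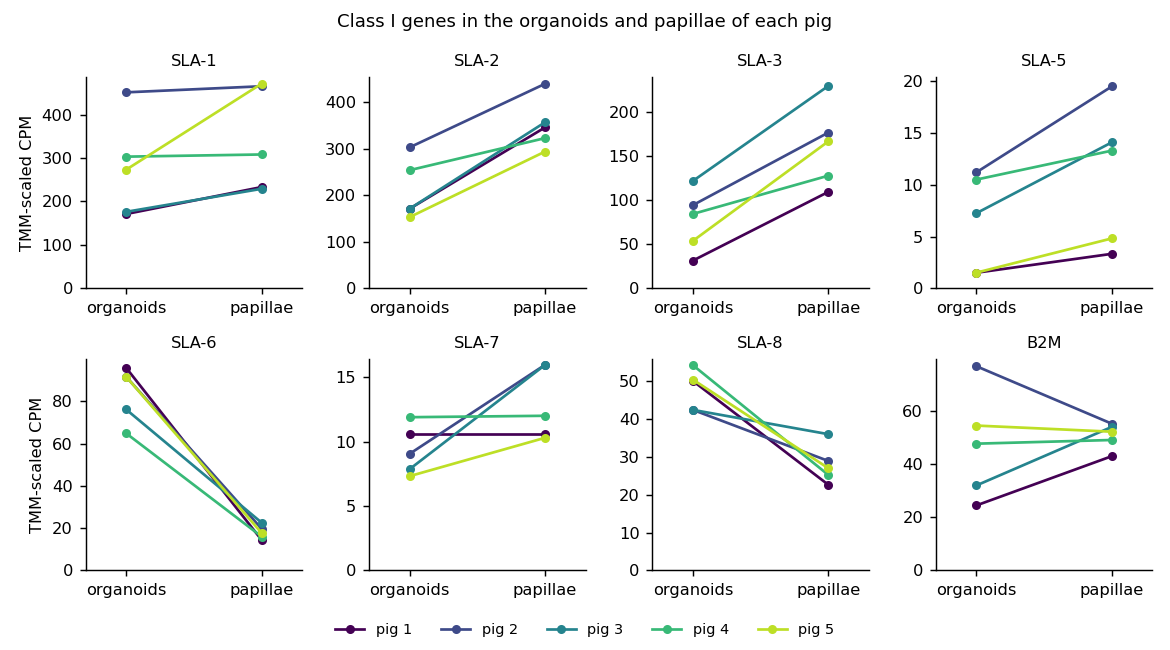
TMM-scaled CPM (axes from 0) of the 7 class I chains and B2M, with organoids at the left and papillae at the right of each panel and 1 line per pig. Lines of SLA-1, SLA-2, SLA-3 and SLA-5 run upward to the papilla in all 5 pigs, those of SLA-6 and SLA-8 run downward in all 5, and B2M lines cross.

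SLA-6 went the other way, with 95.9, 91.7, 76.2, 64.9 and 91.7 CPM in organoids, against 14.4, 19.7, 22.6, 16.0 and 17.7 CPM in papillae. No library overlapped, and SLA-6 was 4.64-fold higher in organoids (log2 difference 2.21, SE 0.16, adjusted p = 5.7e-07). SLA-8 had 50.0, 42.4, 42.4, 54.2 and 50.4 CPM in organoids, against 22.6, 28.9, 36.0, 25.2 and 27.0 CPM in papillae. It was 1.71-fold higher without overlap (log2 difference 0.78, SE 0.14, adjusted p = 0.000448). SLA-7 had 10.6, 9.05, 7.86, 11.9 and 7.32 CPM in organoids, against 10.6, 16.0, 16.0, 12.0 and 10.3 CPM in papillae, and was not called (log2 difference -0.47, SE 0.20, adjusted p = 0.0556). SLA-7 was called lower with RLE scaling (adjusted p = 0.0389), DESeq2 (0.0221), limma-voom (0.0444) and a filter of 1 CPM (0.0402), but not with library size alone (0.497) or without a filter (0.114). The 3 non-classical genes together held 29.5, 14.3, 20.98, 16.7 and 23.7% of class I counts in organoids, against 6.44, 5.54, 8.25, 6.44 and 5.55% in papillae. This share does not depend on the scaling of libraries, and every organoid culture lay over every papilla.

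B2M encodes the light chain of every class I molecule. It had 24.4, 76.7, 31.9, 47.6 and 54.4 CPM in organoids, against 42.9, 55.1, 53.9, 49.0 and 52.1 CPM in papillae. Organoids spread on both sides of the papillae, and B2M was not called (log2 difference -0.11, SE 0.26, adjusted p = 0.733).

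Of the peptide-loading genes, TAPBP, CANX and PDIA3 were higher in organoids. TAPBP encodes tapasin, which bridges class I and the peptide transporter, and had 142, 249.9, 151, 231 and 154 CPM in organoids, against 104, 109, 89.8, 87.0 and 105 CPM in papillae (1.88-fold, SE 0.18 on the log2 scale, adjusted p = 0.000827). CANX encodes calnexin, a chaperone of newly made glycoproteins, and had 364, 388, 368, 395 and 418 CPM in organoids, against 209, 179, 146, 188 and 215 CPM in papillae (2.06-fold, SE 0.13, adjusted p = 2.81e-05). PDIA3 encodes the disulfide isomerase ERp57 and had 349, 471, 398, 480.4 and 407 CPM in organoids, against 255, 225, 179, 199 and 298 CPM in papillae (1.82-fold, SE 0.16, adjusted p = 0.000596). None of these 3 overlapped between the groups, and organoids were higher in all 5 pigs. TAPBP shares 448 exonic bases, 12.49% of its row, with ZBTB22 on the same strand. CALR, the chaperone calreticulin, averaged 499 ± 35.6 CPM in organoids and 401 ± 70.5 CPM in papillae (SD, n = 5 each) and was not called (log2 difference 0.32, adjusted p = 0.0712). With library size alone CALR was called higher (0.62, adjusted p = 0.00234).

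The transporter and the inducible proteasome ran lower or were not called. TAP2 had 6.83, 16.0, 9.53, 24.2 and 14.5 CPM in organoids, against 20.7, 26.3, 27.1, 21.98 and 23.97 CPM in papillae, and was 1.69-fold lower with overlap (log2 difference -0.76, SE 0.29, adjusted p = 0.0353). TAP1, the other transporter subunit, had 28.6, 42.6, 30.2, 56.4 and 39.2 CPM in organoids, against 41.6, 73.1, 49.1, 55.5 and 43.7 CPM in papillae and was not called (log2 difference -0.42, adjusted p = 0.101; with the pig as a block adjusted p = 0.0359). PSMB9 and PSMB8 encode inducible catalytic subunits that change how the proteasome cuts. PSMB9 had 1.10, 5.82, 1.63, 8.85 and 3.74 CPM in organoids, against 11.11, 14.4, 12.8, 10.9 and 14.5 CPM in papillae, and was 3.01-fold lower without overlap (SE 0.48 on the log2 scale, adjusted p = 0.0115). PSMB8 had 1.67, 7.04, 2.37, 13.2 and 6.76 CPM in organoids, against 16.0, 26.5, 20.3, 14.4 and 11.6 CPM in papillae, and was 2.85-fold lower with overlap (SE 0.49, adjusted p = 0.0173). The organoids of pig 4 were the highest of the 5 cultures for TAP1, TAP2, PSMB8, PSMB9 and PSMB10, and those of pig 1 the lowest for all 5 genes.

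PSMB10, the remaining inducible subunit, averaged 9.48 ± 5.43 CPM in organoids and 11.2 ± 1.99 CPM in papillae (SD, n = 5 each) and was not called (adjusted p = 0.571). ERAP1 and ERAP2 encode the aminopeptidases that trim peptides in the endoplasmic reticulum. ERAP2 had 0.488, 6.10, 1.32, 3.95 and 1.35 CPM in organoids, against 5.49, 10.7, 6.84, 5.72 and 7.10 CPM in papillae, and was 2.71-fold lower with overlap (SE 0.56 on the log2 scale, adjusted p = 0.0388). ERAP1 averaged 29.9 ± 6.56 CPM in organoids and 33.6 ± 1.81 CPM in papillae (SD, n = 5 each) and was not called (adjusted p = 0.334). The call of TAP2 was lost in the fits without the organoids of pig 1, 2, 3 or 5 or the papilla of pig 2, 3, 4 or 5 (adjusted p = 0.0505 to 0.0825). That of ERAP2 was lost without the organoids of pig 3 or 5 or the papilla of pig 2, 3, 4 or 5 (adjusted p = 0.0517 to 0.0937). With all libraries and the pig as a block, TAP2 (-0.88, adjusted p = 0.0212) and ERAP2 (-1.86, adjusted p = 0.00983) were both called. TAP2 was higher in organoids in 1 of 5 pigs and ERAP2 in 0 of 5. TAP1 and SLA-7 were called without the organoids of pig 4 (adjusted p = 0.0209 and 0.0258), and SLA-7 and CALR without the papilla of pig 5 (adjusted p = 0.0444 and 0.0268). With library size alone the calls of TAP2 (-0.45, adjusted p = 0.225), PSMB8 (-1.22, adjusted p = 0.0558) and ERAP2 (-1.15, adjusted p = 0.0956) were lost.

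Per kilobase of exon, which allows levels of different genes to be set side by side, the leading members in organoids were PDIA3 at 277 ± 35.9 CPM per kb, CALR at 260.3 ± 18.6, SLA-1 at 135 ± 56.2 and SLA-2 at 95.4 ± 29.4 (SD, n = 5). In papillae CD74 led at 225 ± 30.7 CPM per kb, before CALR at 209 ± 36.8, SLA-1 at 167 ± 58.8, SLA-2 at 159 ± 24.8 and PDIA3 at 152 ± 30.7 (SD, n = 5). Neighbours in either order lay within their SDs of each other, apart from CALR and SLA-1 in organoids. CD74 stood at 2.73 ± 0.892 CPM per kb in organoids. SLA-DRA reached 62.1 ± 12.5, SLA-DQB1 63.9 ± 8.76 and SLA-DQA1 58.1 ± 9.30 CPM per kb in papillae, and B2M 40.3 ± 17.5 in organoids and 43.4 ± 4.17 in papillae.

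Most leukocyte and endothelial markers were lower in organoids, as the class II genes were, while taste cell markers went both ways. Of 20 leukocyte and antigen-presenting cell markers tested, of 24 listed, 16 were lower in organoids, 2 higher and the rest not called. Over all genes tested 35.1% were lower and 32.4% higher. Markers at or near 0 in organoids, here and in the endothelial list, passed the filter on low counts through the papillae. Their count is therefore not by itself a finding. PTPRC, the common leukocyte antigen, had 0 counts in organoids, against 12.04, 14.97, 14.4, 10.2 and 11.3 CPM in papillae, and was at least 561-fold lower (adjusted p = 6e-07). TYROBP, a signalling adaptor of myeloid cells, had 1 count in organoids and 608 in papillae (adjusted p = 2.03e-07). ITGAX, an integrin of dendritic cells, averaged 0.112 CPM in organoids and 6.64 CPM in papillae (55.9-fold lower, adjusted p = 3.09e-07). CD68 and AIF1, macrophage markers, were 2.82-fold and 3.32-fold higher in organoids (adjusted p = 0.00444 and 0.000156). The 24 markers summed to 80.2, 77.6, 117, 41.3 and 114 CPM in organoids, against 173, 175, 177, 149 and 132 CPM in papillae. PTPRC, CD3D, CD3E, CD163, CLEC9A and MS4A1 were at 0 in organoids, and no listed marker was at 0 in papillae. Of 6 endothelial markers 5 were lower, with PECAM1 at 2.40 CPM in organoids and 107 CPM in papillae (44.4-fold lower, adjusted p = 1.87e-09) and CDH5 at 1 count in organoids and 3649 in papillae (adjusted p = 5.42e-09). The taste cell markers summed to 328 to 553 CPM in organoids and 184 to 341 CPM in papillae. Of 8 tested SOX2 was higher (4.35-fold, adjusted p = 3.23e-05) and 4 were lower, led by TRPM5 (8.98-fold, adjusted p = 4.17e-05) and PLCB2 (16.6-fold, adjusted p = 6.59e-05). The part of these cell types in the class II, CD74 and NLRC5 results was not tested.

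Of 6 costimulatory and checkpoint genes tested 4 were lower in organoids, led by CD83 (33.9-fold, adjusted p = 3.29e-06), a surface molecule of mature dendritic cells, and CD274 (7.50-fold, adjusted p = 1.19e-05), which encodes PD-L1. Among 9 genes of class II peptide processing 4 were higher and 2 lower. Cathepsin S, CTSS, which cuts the invariant chain, averaged 4.32 ± 2.11 CPM in organoids and 16.4 ± 1.69 CPM in papillae (SD, n = 5 each, 3.78-fold lower, adjusted p = 0.000418). MARCH1, a ligase that removes class II from the surface, was 35.0-fold lower (adjusted p = 2.82e-06), while cathepsin L, CTSL, was 4.08-fold higher (adjusted p = 0.000132) and the protease SPPL2A 2.03-fold higher (adjusted p = 1.42e-05).

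Interferon-gamma is a known inducer of most members. Of 10 genes of its pathway tested 6 were higher in organoids and 1 lower. IFNGR2, a receptor chain, averaged 172 ± 51.3 CPM in organoids and 32.5 ± 4.49 CPM in papillae (SD, n = 5 each, 5.29-fold higher, adjusted p = 3.54e-06). The transcription factor IRF2 was 2.39-fold higher (adjusted p = 6.99e-05). IRF9 was 3.41-fold lower (adjusted p = 4.94e-05). IRF1, a transcription factor induced by interferon-gamma, averaged 27.2 ± 8.57 CPM in organoids and 19.3 ± 3.45 CPM in papillae and was not called (log2 difference 0.50, adjusted p = 0.0555), while library size alone called it higher (0.77, adjusted p = 0.0162). The ligand IFNG had 0 counts in organoids and 2 counts in papillae, over 5 libraries each.

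Of 7 genes of the constitutive proteasome and its activator, 6 were higher in organoids and none lower, the count of lower genes being 0 at an unadjusted p under 0.05 and with DESeq2 and limma-voom too. PSME1 was 2.88-fold higher (adjusted p = 4.61e-06) and the constitutive subunit PSMB5 1.50-fold higher (adjusted p = 7.01e-05). Of 7 genes of the RFX, NFY and CREB complex that binds MHC promoters 4 were higher and 1 lower, with NFYA 1.82-fold higher (adjusted p = 0.000202), RFXAP 1.53-fold higher (adjusted p = 0.00203) and NFYC 1.50-fold lower (adjusted p = 0.000282). With library size alone NFYC was not called (-0.30, adjusted p = 0.074). Of 8 genes of class I quality control 5 were higher and 1 lower, with the aminopeptidase LNPEP 6.34-fold higher (adjusted p = 2.47e-06), SEL1L 2.01-fold higher (adjusted p = 0.000163) and its partner ligase SYVN1 2.09-fold lower (adjusted p = 5.54e-05). Among class I-like genes, AZGP1 was 10.3-fold lower (adjusted p = 3.11e-05) and the iron regulator HFE 4.28-fold lower (adjusted p = 0.00373).

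Withdrawal of FGF10, a mesenchymal growth factor, left the members close to their levels in LPM. Of the 30 members 21 passed the filter on low counts, 1 was called lower and 0 higher, with 1.2% of all genes tested called lower, 0.582% higher and 1.78% in either direction. At an unadjusted p under 0.05 in edgeR's quasi-likelihood test 6 members were lower and 0 higher, where 6.53% of all genes were lower and 5.22% higher, and DESeq2 and limma-voom called 2 and 1 lower and 0 higher. The groups did not overlap for 8 of the 21 members tested, against 16.6% of all genes tested. The median log2 difference of the 21 tested was -0.06, against 0.00 for all genes.

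The 1 called was SLA-2, with 150.1, 149 and 153 CPM without FGF10, against 167, 177 and 166 CPM in LPM. It was 1.13-fold lower without overlap (log2 difference -0.17, SE 0.04, adjusted p = 0.0155). The call was lost without replicate 1 (adjusted p = 0.11) or replicate 2 (0.0508) of the cultures without FGF10, or without LPM replicate 2 (0.185). The donors of the FGF10 experiment are not given, so its p-values may cover only the spread between these libraries and not that between pigs. SLA-1 had 248, 255 and 260.2 CPM without FGF10, against 278, 286 and 275 CPM in LPM, without overlap but not called (log2 difference -0.13, SE 0.04, adjusted p = 0.0617). SLA-3 had 52.4, 52.8 and 57.8 CPM without FGF10, against 56.4, 59.1 and 56.8 CPM in LPM, with overlap (adjusted p = 0.566). B2M had 42.8, 41.2 and 42.2 CPM without FGF10, against 45.4, 45.1 and 47.8 CPM in LPM, without overlap and not called (adjusted p = 0.252). The 7 class I genes summed to 551, 553 and 574 CPM without FGF10, against 602, 628 and 599 CPM in LPM, and non-classical genes held 17.9, 17.0 and 17.5% of their counts without FGF10, against 16.4, 16.7 and 16.6% in LPM.

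None of the 8 class II genes was tested, since their 8 rows together had 18, 16 and 16 counts without FGF10 and 14, 12 and 8 in LPM. SLA-DRA, SLA-DRB1, SLA-DQA1 and SLA-DOA had 0 counts in both groups, where 3 counts over 3 libraries correspond to 0.0473 CPM without FGF10 and 0.0434 CPM in LPM. CD74 had 3.24, 2.73 and 3.22 CPM without FGF10, against 2.89, 2.19 and 2.83 CPM in LPM (log2 difference 0.21, SE 0.19, adjusted p = 0.727). CIITA had 22.9, 22.1 and 22.3 CPM without FGF10, against 24.7, 20.9 and 21.3 CPM in LPM (log2 difference 0.00, adjusted p = 0.993). Both overlapped. NLRC5 had 2 counts without FGF10 and 3 in LPM and was not tested. The remaining loading and proteasome members had log2 differences between -0.57 for ERAP2 and 0.20 for PSMB9, none called.

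None of 69 genes tested from the other lists was called in the FGF10 comparison by edgeR's quasi-likelihood test, DESeq2 or limma-voom. At an unadjusted p under 0.05 in edgeR's test 2 were higher and 11 lower. Over all genes tested 5.22% were higher and 6.53% lower at that threshold. The larger share of lower genes among the 69 was not tested. IRF1 averaged 17.3 CPM without FGF10 and 18.7 CPM in LPM (edgeR adjusted p = 0.595). EPCAM averaged 468 CPM without FGF10 and 455 CPM in LPM, and PECAM1 2.11 and 2.60 CPM, neither called. PTPRC had 4 counts without FGF10 and 0 in LPM.

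In CQ medium SLA-1, SLA-2 and SLA-3 were called lower and SLA-6 and SLA-7 higher, while class I sums overlapped and were not tested. B2M, TAP2, TAPBP and PDIA3 were lower, and class II stayed near 0. Of the 30 members 20 passed the filter on low counts, of which 3 were called higher, 9 lower and 8 were not called. The shares over all genes tested were 23.1% higher, 24.8% lower and 47.9% in either direction. Genes at or near 0 in CQ passed the filter through the LPM libraries. They include ERAP2 here and AZGP1, CTSS, CD86, KDR and PKD2L1 in the lists below, while CSF1R, near 0 in LPM, passed it through CQ. The count of such genes is therefore not by itself a finding. The groups did not overlap for 13 of the 20 members tested, against 61.1% of all genes tested. The median log2 difference was -0.10 for those 20 against -0.07 for all genes. No culture day is recorded for the LPM libraries here, so that medium and culture age cannot be told apart, and nothing says that the 3 libraries of a group came from separate cultures, in which case p-values measure only the spread between these libraries.

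**Figure D4:**
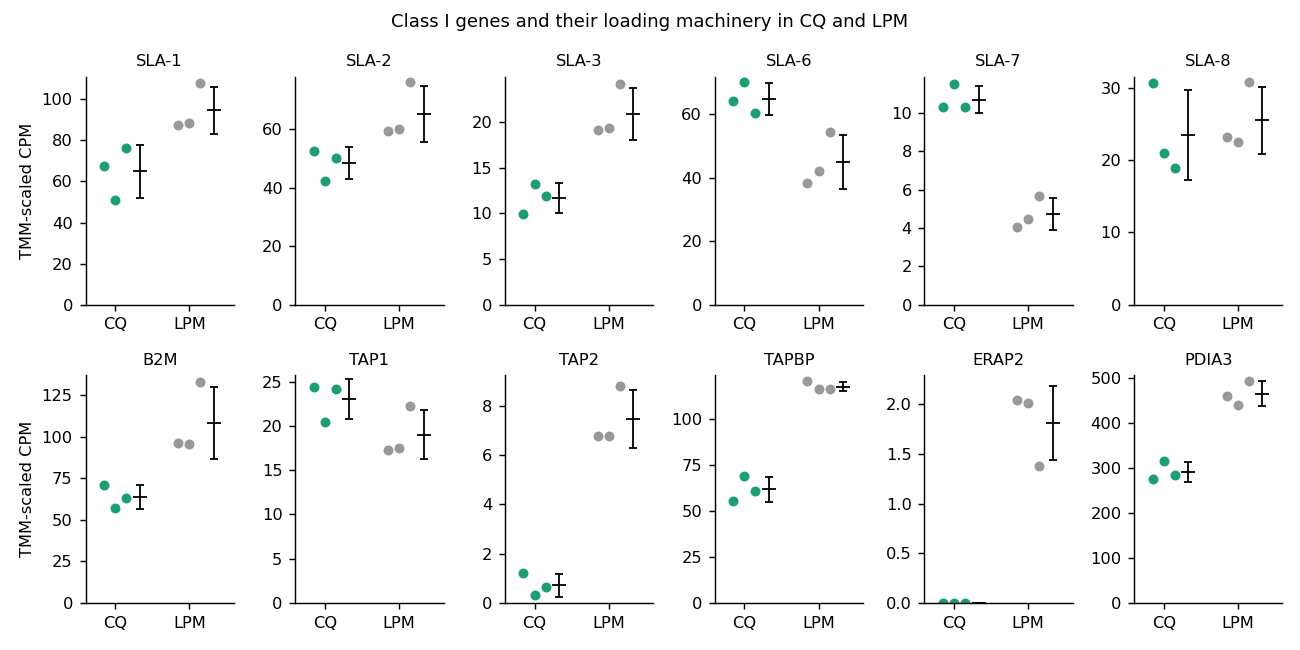
TMM-scaled CPM of 12 class I and peptide-loading genes in each CQ library (left) and LPM library (right), with bars at the mean ± SD of 3 libraries. SLA-1, SLA-2, SLA-3, B2M, TAP2, TAPBP, ERAP2 and PDIA3 lie lower in CQ, SLA-6 and SLA-7 higher, and SLA-8 and TAP1 were not called.

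The classical chains were lower in CQ. SLA-1 had 67.6, 50.8 and 76.4 CPM in CQ, against 87.6, 88.6 and 108 CPM in LPM, without overlap (1.46-fold lower, log2 difference -0.55, SE 0.17, adjusted p = 0.0235). SLA-2 had 52.6, 42.2 and 50.1 CPM in CQ, against 59.2, 60.1 and 76.1 CPM in LPM, without overlap (1.35-fold lower, SE 0.15, adjusted p = 0.0375). SLA-3 had 9.94, 13.2 and 11.9 CPM in CQ, against 19.1, 19.3 and 24.2 CPM in LPM, without overlap (1.79-fold lower, SE 0.20, adjusted p = 0.00734). The call of SLA-1 was lost without LPM replicate 3 (adjusted p = 0.0607), and that of SLA-2 with library size alone (adjusted p = 0.062) and without CQ replicate 2 (0.0879), CQ replicate 3 (0.0589), LPM replicate 2 (0.0609) or LPM replicate 3 (0.0848). SLA-5 had 1.34, 0 and 1.01 CPM in CQ, against 0.408, 0.490 and 0.810 CPM in LPM, and was not called (adjusted p = 0.778).

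Of the non-classical chains, SLA-7 had 10.3, 11.5 and 10.3 CPM in CQ, against 4.03, 4.46 and 5.67 CPM in LPM. It was 2.27-fold higher without overlap (log2 difference 1.18, SE 0.27, adjusted p = 0.0065). SLA-6 had 64.3, 70.1 and 60.3 CPM in CQ, against 38.4, 42.2 and 54.5 CPM in LPM, and was 1.44-fold higher without overlap (log2 difference 0.53, SE 0.15, adjusted p = 0.0197), a call lost without CQ replicate 2 (0.0684), LPM replicate 1 (0.098) or LPM replicate 2 (0.101). SLA-8 had 30.6, 21.03 and 18.9 CPM in CQ, against 23.2, 22.5 and 30.8 CPM in LPM, with overlap and not called (log2 difference -0.12, adjusted p = 0.693). The non-classical genes held 44.5, 49.2 and 39.1% of class I counts in CQ, against 28.3, 29.1 and 30.3% in LPM, without overlap. The class I sum was 237, 209 and 229 CPM in CQ, against 232, 238 and 300.0 CPM in LPM, with overlap. It was not tested, and the log2 ratio of group means was -0.19, or -0.28 to -0.08 with 1 library left out. The uncertain split of counts between class I genes applies to these shares as well. SLA-6 was thus called higher both in organoids against papillae and in CQ against LPM, and SLA-2 and SLA-3 lower in both.

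B2M, which the annotation of this experiment gives a longer model (1680 bases, against 1166 in the other libraries), had 71.0, 57.0 and 63.2 CPM in CQ, against 95.9, 95.5 and 133 CPM in LPM. It was 1.69-fold lower without overlap (log2 difference -0.76, SE 0.16, adjusted p = 0.00385). TAP2 had 1.21, 0.305 and 0.631 CPM in CQ, against 6.78, 6.76 and 8.79 CPM in LPM, which is 33 against 488 counts (10.4-fold lower as fitted, log2 difference -3.38, SE 0.55, adjusted p = 0.000974). The CQ counts lie under the floor of 38.2 counts, so the size of this fold is uncertain. TAP1, its partner in the peptide transporter, had 24.4, 20.4 and 24.2 CPM in CQ, against 17.3, 17.5 and 22.2 CPM in LPM, with overlap and not called (log2 difference 0.27, SE 0.18, adjusted p = 0.232). The pair of transporter subunits therefore had values of opposite sign.

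TAPBP had 55.5, 69.0 and 60.6 CPM in CQ, against 120.2, 116 and 116 CPM in LPM (1.90-fold lower, log2 difference -0.93, SE 0.12, adjusted p = 0.000219). PDIA3 had 275, 317 and 284 CPM in CQ, against 461, 441 and 495 CPM in LPM (1.59-fold lower, log2 difference -0.67, SE 0.10, adjusted p = 0.000546). Neither overlapped, and the SDs were small beside the differences. CANX had 522, 562 and 503 CPM in CQ, against 447, 433 and 330.4 CPM in LPM, and was 1.31-fold higher without overlap (SE 0.13, adjusted p = 0.03), a call lost without CQ replicate 1 (0.0751), 2 (0.113) or 3 (0.0596) or LPM replicate 2 (0.0639). ERAP2 had 0 counts in CQ, against 2.04, 2.01 and 1.38 CPM in LPM, or 0 against 115 counts, and was at least 2.19-fold lower (adjusted p = 0.00218). CALR (adjusted p = 0.517) and ERAP1 (adjusted p = 0.644) were not called.

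PSMB9 had 2.69, 2.86 and 2.84 CPM in CQ, against 1.58, 1.71 and 1.01 CPM in LPM, without overlap but not called (log2 difference 0.96, SE 0.55, adjusted p = 0.179). PSMB8 was not tested, with 7 counts in CQ and 46 in LPM, and PSMB10 was not called (log2 difference 0.14, adjusted p = 0.832). CIITA had 7.99, 9.27 and 6.06 CPM in CQ, against 13.6, 13.2 and 15.6 CPM in LPM. It was 1.82-fold lower without overlap (log2 difference -0.86, SE 0.24, adjusted p = 0.0161), a call lost without LPM replicate 3 (adjusted p = 0.0551), and its antisense neighbour DEXI was lower as well (log2 difference -0.79, adjusted p = 0.0247). NLRC5 had 0.403, 0 and 2.84 CPM in CQ, against 0.102, 0 and 0.202 CPM in LPM, 51 against 7 counts, and was not tested. Most of its CQ counts came from replicate 3, which also held all 13 PTPRC counts of CQ. Other low counts in CQ fell in single libraries too, with 19 of SLA-DOA only in replicate 3. SLA-DOB (11 counts) and SLA-DMA (10 counts) were found only in CQ replicate 1. A link between NLRC5 and PTPRC was not tested.

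CD74 had 1.21, 4.27 and 3.91 CPM in CQ, against 2.50, 2.69 and 2.96 CPM in LPM, with overlap and not called (log2 difference 0.21, SE 0.56, adjusted p = 0.79). SLA-DRA and SLA-DRB1 had 0 counts in both groups. The 8 class II genes together had 31, 0 and 30 counts in CQ and 6, 1 and 5 in LPM, and none was tested. In CQ 21 of these were SLA-DQA1 and 19 SLA-DOA, genes with 0 counts in LPM, and each lay under the floor of 38.2 counts, so that no difference was detectable at this depth.

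Of 9 interferon-gamma pathway genes tested 3 were higher in CQ and 1 lower. IRF1 averaged 25.3 ± 1.37 CPM in CQ and 9.79 ± 0.659 CPM in LPM (SD, n = 3 each, 2.58-fold higher, adjusted p = 0.000201), and IFNGR2 324 ± 16.9 CPM in CQ and 137 ± 7.27 CPM in LPM (2.37-fold higher, adjusted p = 1.36e-05). IRF2, which can compete with IRF1 for its sites, was 3.25-fold lower (adjusted p = 4.13e-05). IFNG had 0 counts in both groups.

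Of 7 constitutive proteasome and activator genes, PSME3 (2.08-fold, adjusted p = 6.85e-05) and PSMB7 (1.26-fold, adjusted p = 0.042) were higher in CQ. PSME1 (2.86-fold, adjusted p = 8.63e-05) and PSME2 (1.68-fold, adjusted p = 0.0109), subunits of the interferon-inducible proteasome activator, were lower. Of the promoter-binding complex CREB1 was higher (1.88-fold, adjusted p = 0.00142) and 3 genes were lower, led by NFYB (1.35-fold, adjusted p = 0.0168) and RFXAP (1.33-fold, adjusted p = 0.0374), the second of which was not called with library size alone (adjusted p = 0.0757). Of 8 class II processing genes tested cathepsin D, CTSD, was higher (2.14-fold, adjusted p = 9.45e-05) and 3 were lower, CTSS with 2 counts in CQ, under the floor, against 92 in LPM (adjusted p = 0.00932) and MARCH8 1.67-fold (adjusted p = 0.0167) among them. Quality control genes NPEPPS (1.50-fold, adjusted p = 0.0024) and UGGT1 (1.65-fold, adjusted p = 0.018) were higher, and none of that list was lower, with 0 at an unadjusted p under 0.05 and 0 with DESeq2 and limma-voom.

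FCGRT, the class I-like receptor that carries immunoglobulin G and pairs with B2M, averaged 31.4 CPM in CQ and 84.8 CPM in LPM (2.696-fold lower, adjusted p = 9.17e-05). AZGP1 had 3 counts in CQ and 264 in LPM and was called lower (adjusted p = 0.00153), with no fold given because the CQ counts lie under the floor. Of 4 costimulatory genes tested ICOSLG was 1.89-fold lower (adjusted p = 0.00329), and CD86, with 0 counts in CQ and 81 in LPM, at least 1.54-fold lower (adjusted p = 0.00391).

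Leukocyte markers summed to 34.5, 38.0 and 50.8 CPM in CQ, against 71.9, 84.8 and 93.5 CPM in LPM, and 9 of the 24 were at 0 in CQ and 8 in LPM. Of the 5 tested CD79A (2.86-fold, adjusted p = 0.0257) and CSF1R (62 against 5 counts, adjusted p = 0.0264) were higher in CQ, and CD68 (2.46-fold, adjusted p = 8.93e-05), AIF1 (2.66-fold, adjusted p = 0.00485) and CD14 were lower. PTPRC had 13 counts in CQ and 2 in LPM and was not tested. EPCAM averaged 283 ± 13.01 CPM in CQ and 571 ± 49.9 CPM in LPM (SD, n = 3 each, 2.02-fold lower, adjusted p = 5.33e-05), TP63 was lower (4.89-fold, adjusted p = 3.24e-06) and KRT8 higher (1.61-fold, adjusted p = 0.000858). The epithelial markers together summed to 5277 to 5719 CPM in CQ and 4577 to 5223 CPM in LPM. The taste cell markers summed to 79.8 to 99.4 CPM in CQ and 224 to 245 CPM in LPM. Of 6 tested 3 were lower in CQ, SOX2 (3.01-fold, adjusted p = 1.73e-05), LGR6 (3.21-fold, adjusted p = 0.000873) and PKD2L1 (6 against 194 counts, adjusted p = 0.013). The endothelial markers KDR (0 against 579 counts, at least 11.04-fold, adjusted p = 9.39e-05) and PECAM1 (27 against 355 counts, adjusted p = 0.0173) were lower too. The part of these cell type markers in the class I results was not tested.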

How the data were processed

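Poly-A RNA-seq was deposited as read-pair counts per gene, raw and not normalized. The submitters' processing notes name STAR 2.7.10b, FastQC 0.11.9, MultiQC 1.14 and featureCounts. Per the file headers the authors counted with featureCounts 2.0.3 (27376 genes) or 2.0.6 (CQ experiment, 29850 genes). Counting ignored strand, left out pairs mapping to several places and gave pairs on overlapping genes to each gene. Directionality of the libraries is not given in the sources used. Of the CQ counts, 1 entry without a gene name, 0.326 to 0.477% of counts, was left out of all steps. Positions are Sscrofa11.1, and all 30 members, as annotated for the 16 libraries, matched the RefSeq table by symbol, start and end. The CQ annotation differs for B2M, whose model there is longer.

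Each comparison was fitted on its own groups in edgeR 4.0.16 (R 4.3.3) with filterByExpr, TMM scaling, the quasi-likelihood F test and Benjamini-Hochberg adjustment over all genes tested. Calls needed an adjusted p under 0.05. The standard error is the log2 difference over the root of F. CPM are TMM-scaled within a comparison, so levels across experiments are scaled separately. The scripts were tested on simulated data. DESeq2 1.42.0, limma-voom (limma 3.58.1), other scalings and filters, a replicate block and each library left out were alternatives. Replicate pairs differed by more than sampling noise, by very different amounts. The chi-square per gene was 2.569 to 4.653 within the groups of the FGF10 experiment. Among papillae and among passage 1 organoids it was 32.116 to 285.953.

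Organoids and papillae of the same number come from the same pig. Correlations of their deviations were 0.032 to 0.092 for the same pig and -0.147 to 0.089 for other pairs, and 4 of 5 cultures correlated best with their own papilla.

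Members and lists were chosen with earlier results of these data known. Every member is named, with values per library for the called members of smallest p (up to 12 a comparison) and for SLA-1, SLA-2, SLA-3, SLA-DRA, B2M, CD74, NLRC5 and CIITA. Of each other list up to 2 called genes per direction are named by smallest p, besides IRF1, PTPRC, PECAM1 and EPCAM; 1 further gene of this rule is not reported here. The floor of 38.2 counts in CQ is 3 counts times the variance-to-mean ratio and was chosen after seeing the data.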

Additional observations from a re-analysis of the deposited data

Results flagged for a closer look

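Of 76 group values examined, 4 held a library far from the rest, where chance gives about 1 in 20. SLA-DOB in the papilla of pig 2 was at 3.30 CPM, with the other papillae at 1.81 to 2.16 CPM. The endothelial markers summed to 114 CPM in the organoids of pig 5, with the other cultures at 20.98 to 43.98 CPM. They summed to 517 CPM in the papilla of pig 2, with the other papillae at 339.6 to 378 CPM. The taste cell markers summed to 553 CPM in the organoids of pig 1, with the other cultures at 328 to 388 CPM.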

How the results depend on the processing

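In organoids against papillae, library size alone gave 11 members lower in place of 17. Without FGF10, DESeq2 and the fit with no filter each gave 2 members lower in place of 1, and no filter gave 429 called genes in place of 254. In CQ, no filter gave 1 member higher in place of 3. The cause was not tested.

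With 1 library left out, called genes ranged from 10443 to 11576 in organoids against papillae, 125 to 294 in the FGF10 comparison (128 without replicate 1 of the cultures without FGF10, 125 without LPM replicate 2) and 4933 to 7112 in CQ against LPM. Members higher ranged from 5 to 6 and lower from 15 to 19 in organoids, lower from 0 to 1 without FGF10, and in CQ higher from 1 to 3 (1 without LPM replicate 2) and lower from 6 to 9. The log2 ratio of class I sums ranged from -0.52 to -0.26, from -0.14 to -0.1 and from -0.28 to -0.08 in the 3 comparisons, and that of class II from -9.32 to -8.99, from 0.56 to 0.82 and from 2.33 to 3.39. No class II gene was tested in the FGF10 and CQ comparisons. Class II sums there rest on few counts, with 31, 0 and 30 in CQ against 6, 1 and 5 in LPM.

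With a replicate block the 3 comparisons had 10679, 234 and 6120 called genes, 5, 0 and 3 members higher and 19, 1 and 9 lower. By pig the block changed the calls of SLA-5 and TAP1 and of no other member. In the FGF10 and CQ experiments samples share only a number, and in CQ 1 of 3 libraries correlated best with its own number.

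Signs turned only for members not called. In organoids library size alone gave 0.19 for B2M, 0.06 for PSMB10 and 0.12 for ERAP1, and B2M ran from -0.34 to 0.07 with 1 library left out, with 0.02 in another such fit. Without FGF10, TAPBP was 0.00 with library size alone, and with 1 library left out CIITA ran from -0.04 to 0.09 (-0.01 and -0.03 in others), SLA-8 from -0.04 to 0.02, SLA-7 from -0.14 to 0.03 and CANX from -0.05 to 0.00. In CQ, SLA-5 was -0.79 with limma-voom and -0.24 with the replicate block, and with 1 library left out ran from -0.20 to 1.01, CD74 from -0.11 to 0.57, SLA-8 from -0.37 to 0.03 (0.00 in another) and PSMB10 from -0.04 to 0.27.

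Depth limits the class II genes in organoids and NLRC5 and PSMB8 in CQ, which rest on few counts.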
